A study of Mus musculus with 4 samples.

Results

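The genes described here are 10 innate immune receptors of mouse microglia: the Toll-like receptors Tlr1, Tlr2, Tlr4, Tlr6, Tlr7, Tlr8, Tlr9 and Tlr13, and the lipopolysaccharide (LPS) co-receptors Cd14 and Ly96. They were chosen by gene symbol, and all 10 were found among the 24148 genes of the count table. The cells were primary microglia, macrophages that live in brain tissue, detached from mixed glia by shaking and then replated. Control cells (2 libraries) are labelled only as control, with no agent named, and LPS cells (2 libraries) received 10 ng/ml LPS for 4 h. Both groups shared the culture procedure and a serum-containing medium. No sort for microglia is described, and the sources used here do not give the strain, the age or the animals or cultures behind a replicate. The p-values therefore measure only the spread between these libraries, which may be technical.

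Toll-like receptors are membrane proteins that recognise microbial molecules and signal through adaptor proteins such as Myd88. LPS is handed by Cd14 to Ly96 (also called MD-2), which presents it to Tlr4 at the cell surface. Tlr2 binds bacterial lipopeptides as a partner of Tlr1 or Tlr6, whereas Tlr7, Tlr8, Tlr9 and Tlr13 sit in endosomes, where the family senses nucleic acids. Microglia carry many of these receptors and answer LPS with inflammatory cytokines.

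Total counts were 3617176 and 4080568 for the control libraries and 5095630 and 4592474 for the LPS libraries. The treatment was visible in all 4 genes used to check it. Il1b, Il6, Tnf and Nos2 were each called higher, with log2 fold changes from 3.51 (Tnf, called neither without control replicate 2, at 2.87, nor without LPS replicate 1, at 3.69, nor without the other LPS library, at 3.30) to 9.51 (Il6). Tnf was at 4.28 without control replicate 1 and 2.41 in limma-trend, and Il6 at 8.75 in limma-trend. Il6 had control counts of 4 and 8 and Tnf of 4 and 2. Both reached the minimum count for testing only through their LPS counts, so they could be tested only because they were high in LPS. The microglia marker Itgam had no count in any library and Trem2 had at most 2, both genes with 2 accessions, while the other 7 of 9 microglia markers were counted in every library. The summed level of the 9 markers was 2710 and 2100 CPM (counts scaled to a common library size) in control and 1740 and 1500 CPM in LPS. None of them was called higher or lower by edgeR, although 4 had an unadjusted p under 0.05. Summed markers of other cells ranged over the 4 libraries from 68.1 to 429 CPM for astrocytes, 16.9 to 111 for oligodendrocytes, 39.1 to 46.9 for neurons, 15.1 to 37.2 for fibroblasts, 2.91 to 11.2 for endothelium, 60.8 to 126 for border macrophages, 10.3 to 22.2 for monocytes and neutrophils and 1.2 to 4.26 for B cells. Pecam1, Cd163 and S100a9 had no count.

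LPS moved these receptors in both directions. Tlr2 and Cd14 rose 7.65-fold and 5.54-fold, Tlr13 fell by 1.65 on the log2 scale, and Tlr4, Tlr6, Tlr8 and Tlr9 did not pass the test. A gene was tested if its mean count over the 4 libraries reached 10, and it was called if its adjusted p in edgeR's quasi-likelihood test was under 0.05. Of the 10 genes, 7 were tested, 2 were called higher and 1 lower. Among all 9548 genes tested, 8.34% were called, 6.55% higher and 1.79% lower. CPM values of the groups did not overlap for 6 of the 7, against 50.6% of all genes tested (24.7% with both LPS libraries above and 25.8% with both below). The median log2 fold change of the 7 was 0.47, against -0.05 for all genes tested. That median is the value of Tlr9 alone (SE 0.79, edgeR adjusted p = 0.82), whose groups overlapped, so it does not show a shift of the receptors as a group.

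**Figure D1:**
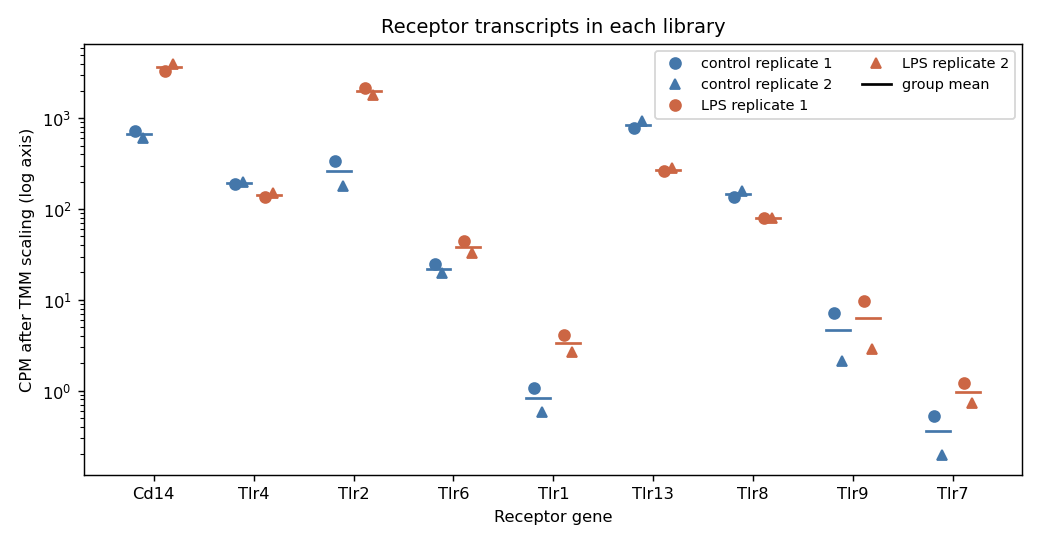
Level of 9 receptor genes in each library, as CPM after TMM scaling on a log axis; circles are replicate 1, triangles replicate 2, and lines the group means. Cd14 and Tlr2 lie far higher in both LPS libraries, Tlr13 lies lower, and Tlr9 separates by replicate number instead of treatment. Ly96, with no count, is not drawn.

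Among the proteins that detect LPS itself, Cd14, the co-receptor that captures LPS (chromosome 18, 36725064 to 36726815, GRCm38.p6), had the highest level per kilobase of transcript among the 7 genes compared that way. It had 725 and 607 CPM in control and 3360 and 4010 CPM in LPS. Both LPS libraries lay far above both control libraries. Group means were 666 ± 83.5 and 3690 ± 460 CPM (SD, n = 2 each), a log2 fold change of 2.47 ± 0.22 (SE) with an edgeR adjusted p of 0.0026. Cd14 was also called when any 1 library was left out, at 2.32 to 2.60 with edgeR adjusted p-values of 0.00045 to 0.015. In bulk RNA, fewer cells of a type and less RNA per cell cannot be told apart.

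Tlr4, the signalling receptor for LPS (chromosome 4, 66827551 to 66846581), had 188 and 198 CPM in control and 135 and 151 CPM in LPS. The LPS libraries were below the controls by a small margin. Its log2 fold change was -0.43 ± 0.19, and edgeR did not call it (adjusted p = 0.27). The estimate was -0.87 with total-count scaling (edgeR adjusted p = 0.078) and -0.52 to -0.36 with 1 library left out. Set against Tlr4 within each library, which removes library scaling, the log2 ratio of Cd14 counts to Tlr4 counts was 1.95 and 1.61 in control and 4.64 and 4.73 in LPS. The ratio thus shifted by 2.90, and an exact permutation test of 2 libraries against 2 gave its smallest possible two-sided p of 0.333.

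Ly96, the LPS-binding partner of Tlr4 (chromosome 1, 16688456 to 16709605), had 0 counts in all 4 libraries. A count of 0 allows up to 3 counts per library, or 0.581 to 0.795 CPM, counting error only. Its 2 accessions were counted as separate rows. All 429 bases of the shorter lie within the longer, which has 632 bases. Of these, 203 bases (32.1%) are particular to the longer. The longest run of them is 75 bases, under the 101 bases of a sequencing cycle run. The sources used here do not say how reads that fit both rows were counted, and the part of this overlap in the zeros was not tested.

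Of the lipopeptide receptors, Tlr2 (chromosome 3, 83836272 to 83841824) had 341 and 179 CPM in control and 2160 and 1810 CPM in LPS. The controls differed from each other by 0.93 on the log2 scale, far less than the distance to the LPS libraries. Tlr2 went from 260 ± 114 to 1980 ± 243 CPM (SD, n = 2 each), a log2 fold change of 2.93 ± 0.36 with an edgeR adjusted p of 0.0081. It was called with any 1 library left out, at 2.51 to 3.46 with edgeR adjusted p-values of 7.1e-05 to 0.028.

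Tlr6, a partner of Tlr2 (chromosome 5, 64953092 to 64970942), had 24.6 and 19.6 CPM in control and 44.0 and 32.6 CPM in LPS. Both LPS libraries were above both controls, but the log2 fold change of 0.80 ± 0.27 was not called by edgeR (adjusted p = 0.17). The Tlr6 locus overlaps Fam114a1 and Mir574 in the annotation. Only the spans of the genes were compared, and whether any exonic bases are shared was not tested. On the same strand, no gene other than Tlr1 shared a stretch of 101 bases with the Tlr6 transcript. Tlr1, the other partner (chromosome 5, 64924680 to 64933600), was under the minimum for testing, with control counts of 4 and 3 and LPS counts of 17 and 11. The ratio of its pooled counts, LPS over control after scaling, was 4.31, with a 95% Clopper-Pearson interval of 1.84 to 11.7 that covers counting error only. Without the minimum, edgeR gave Tlr1 an adjusted p of 0.081. Tlr1 has 2 accessions that share 2688 bases. The longer holds 337 bases of its own and had 4, 2, 17 and 9 counts, while the shorter holds 95 and had 0, 1, 0 and 2.

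Tlr1 and Tlr6 stand side by side on chromosome 5 and are close copies of each other. Of the 101-base windows of the transcripts, 256 of 2925 in the longer Tlr1 accession (8.8%) and 256 of 3577 in Tlr6 (7.2%) occurred letter for letter in the other gene. None of the windows of the other 8 genes was found in a transcript of another gene. The longest identical run has 229 bases and is shown because reads inside it fit both genes equally. Capitals mark the run, with 15 bases on each side in lower case, 5′ to 3′ on the minus strand and coding in both genes (GENCODE M21, GRCm38, chr5:64925522-64925780 for Tlr1 and chr5:64953813-64954071 for Tlr6). The levels of both genes are uncertain for this reason.
Tlr1: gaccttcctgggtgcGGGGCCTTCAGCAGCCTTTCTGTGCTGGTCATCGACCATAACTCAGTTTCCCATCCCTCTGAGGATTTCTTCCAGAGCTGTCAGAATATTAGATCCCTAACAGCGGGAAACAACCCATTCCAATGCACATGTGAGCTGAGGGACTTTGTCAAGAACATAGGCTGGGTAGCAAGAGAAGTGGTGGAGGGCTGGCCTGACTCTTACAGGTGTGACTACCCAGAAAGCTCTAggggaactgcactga
Tlr6: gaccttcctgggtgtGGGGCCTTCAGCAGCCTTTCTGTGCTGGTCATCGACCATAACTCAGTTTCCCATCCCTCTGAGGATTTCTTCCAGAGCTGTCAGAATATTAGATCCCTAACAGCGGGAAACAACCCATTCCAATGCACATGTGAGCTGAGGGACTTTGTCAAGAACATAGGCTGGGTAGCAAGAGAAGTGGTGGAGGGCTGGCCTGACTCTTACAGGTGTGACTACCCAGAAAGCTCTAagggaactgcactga

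Among the endosomal receptors, Tlr13, a sensor of bacterial ribosomal RNA (chromosome X, 106143275 to 106160493), had 781 and 923 CPM in control and 260 and 283 CPM in LPS. The groups lay well apart, and replicates differed by no more than 0.24 on the log2 scale. Tlr13 went from 852 ± 100 to 271 ± 16.2 CPM (SD, n = 2 each), 3.14-fold lower in LPS (log2 fold change -1.65 ± 0.19, edgeR adjusted p = 0.0069). Leaving out either LPS library ended the edgeR call (-1.59 with adjusted p = 0.073 without replicate 1, and -1.71 with adjusted p = 0.055 without replicate 2), and adjusted p-values ranged from 6.3e-07 to 0.073 over 10 alternatives without a block. The log2 ratio of Tlr13 to Tlr4 counts was 2.06 and 2.22 in control and 0.95 and 0.91 in LPS, and was lower in both LPS libraries (difference -1.21, exact permutation p = 0.333, two-sided).

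Tlr8, a close relative of Tlr7 (chromosome X, 167241123 to 167264329), had 137 and 159 CPM in control and 79.6 and 80.7 CPM in LPS. Its LPS libraries were nearly equal and below both controls. The log2 fold change was -0.88 ± 0.20, with an edgeR adjusted p of 0.058, just outside the threshold. Limma-trend (adjusted p = 0.049) and edgeR with a minimum mean count of 50 (adjusted p = 0.034) called Tlr8 lower. The DESeq2 Wald test (adjusted p = 0.053) and edgeR without a minimum (adjusted p = 0.12) did not. Nor was Tlr8 called with any 1 library left out, at log2 fold changes of -1.0 to -0.8. The summed microglia markers were also lower in both LPS libraries than in both controls. What part that decline has in the values of Tlr4, Tlr8 and Tlr13 was not tested.

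Tlr9, which recognises unmethylated CpG DNA (chromosome 9, 106222598 to 106226876), had counts of 27 and 11 (control) and 40 and 12 (LPS), or 7.15, 2.13, 9.62 and 2.90 CPM. It was higher in both libraries numbered 1 than in both numbered 2, and the treatment groups overlapped. Its log2 fold change was 0.47 ± 0.79 (edgeR adjusted p = 0.82) and lay between -0.63 and 1.52 with 1 library left out. Summed marker levels of other cells also split by number. Border macrophages had 119 and 60.8 CPM in control and 126 and 76.1 CPM in LPS, in the same order of libraries as Tlr9. Oligodendrocytes (111, 31.0, 84.4 and 16.9 CPM) were likewise higher in the libraries numbered 1. Neurons were too, by a small margin (46.9, 39.1, 45.2 and 39.9 CPM), but nearly all of that sum was Tubb3 (46.6, 38.8, 44.7 and 39.9 CPM). Astrocytes (68.1, 296, 82.3 and 429 CPM), fibroblasts (15.1, 27.9, 24.5 and 37.2 CPM) and endothelium (2.91, 11.2, 7.46 and 10.6 CPM) were higher in those numbered 2. Their part in the Tlr9 values was not tested. Tlr7, a sensor of single-stranded RNA (chromosome X, 167303380 to 167330574), had 2, 1, 5 and 3 counts, all in 1 of its 5 accessions. The pooled ratio was 2.87 with an interval of 0.690 to 16.8, so no difference was detectable from these counts.

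The 3 genes under the minimum, Tlr1, Tlr7 and Ly96, were the 3 with more than 1 accession, and the 7 tested genes had 1 accession each. The same split ran through the table: 46.8% of 19106 named genes with 1 accession reached the minimum, against 11.7% of 4801 with more than 1. Genes with no count made up 6.6% and 30.2%. What part the number of accessions has in the low counts of Tlr1, Tlr7 and Ly96 was not tested.

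**Figure D2:**
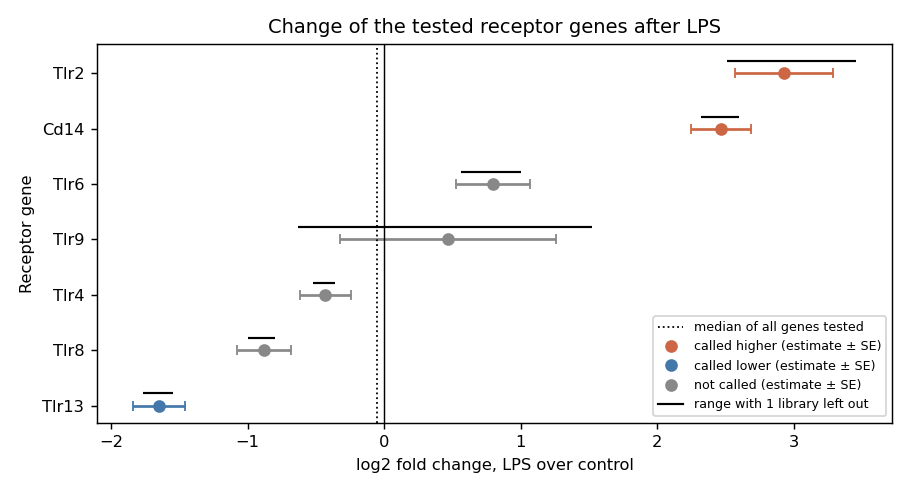
Log2 fold change (LPS over control) of the 7 tested receptor genes, with SE as coloured bars and the range of estimates with 1 library left out as black lines. Tlr2 (2.93) and Cd14 (2.47) were called higher and Tlr13 (-1.65) lower; the range of Tlr9 crosses 0.

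Levels of different genes were compared as CPM per kilobase of transcript (GENCODE M21), for the 7 genes with 1 accession. In control the order was Cd14 (406 ± 50.9), Tlr13 (210 ± 24.7), Tlr2 (86.2 ± 38.0), Tlr4 (47.3 ± 1.8), Tlr8 (43.1 ± 4.58), Tlr6 (6.01 ± 0.973) and Tlr9 (1.33 ± 1.02), all SD with n = 2. Only Tlr4 and Tlr8, at 46.1 and 48.6 against 39.8 and 46.3 CPM per kb, overlapped as neighbours in that order. In LPS the order was Cd14 (2250 ± 281), Tlr2 (658 ± 80.9), Tlr13 (66.9 ± 4.01), Tlr4 (35.0 ± 2.76), Tlr8 (23.4 ± 0.225), Tlr6 (10.4 ± 2.19) and Tlr9 (1.8 ± 1.37), and no neighbours overlapped. Tlr13 and Tlr2 had thus changed places.

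Shares were taken of the summed per-kilobase level of Tlr2, Tlr4, Tlr6, Tlr8, Tlr9 and Tlr13, the 6 of the 8 Toll-like receptors described here that have 1 accession. Tlr3, at 18.4 CPM in control and 228 CPM in LPS, is not in this sum. Tlr13 made up 48.1% and 58.7% in control and 7.53% and 9.41% in LPS. Tlr2 made up 28.2% and 15.3% in control and 84.1% and 81.1% in LPS. The share of Tlr4 went from 11.5% and 12.5% to 3.89% and 4.99%. These shares do not depend on library scaling, but a share falls when another receptor rises, as Tlr2 did.

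**Figure D3:**
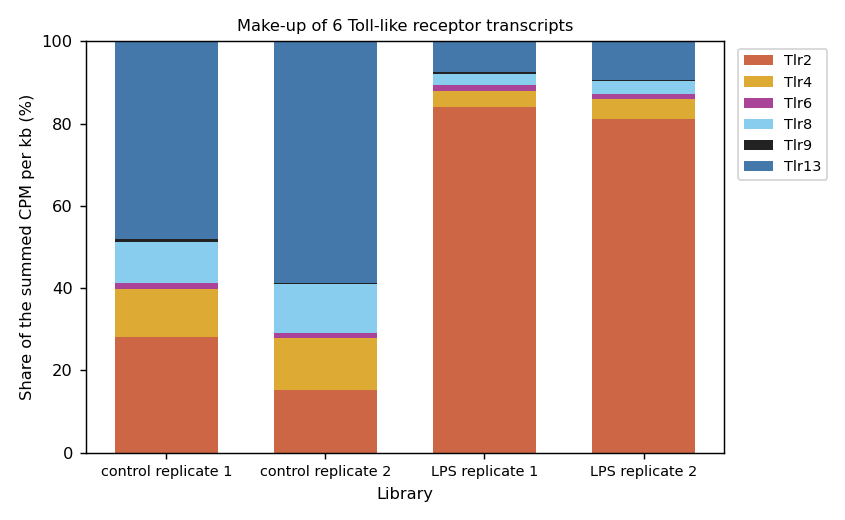
Share (%) of Tlr2, Tlr4, Tlr6, Tlr8, Tlr9 and Tlr13 in their summed CPM per kb, 1 bar per library; other Toll-like receptors are not in the sum. Tlr13 is the largest part of both control bars (48.1% and 58.7%) and Tlr2 of both LPS bars (84.1% and 81.1%).

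The promoters of Tlr2 and Tlr13 are shown because these receptors were called in opposite directions. Promoter sequences, from upstream of each start site to shortly after it, came from RefSeq, GRCm38.p6, which held entries for Tlr1, Tlr2, Tlr6, Tlr8, Tlr9 and Tlr13. Both strands were searched for the NF-kB consensus, an interferon-response-like motif, TGANTCA (an AP-1-like motif) and GAGGAAG (a PU.1-like motif). These occurred in 4.5%, 3.4%, 7.8% and 13.6% of 32851 promoters. Capitals mark matches. The Tlr2 window (chr3:83841559-83841858, minus strand) held 3 matches to the NF-kB consensus, of which 2 overlap, and the Tlr13 window (chrX:106143025-106143324, plus strand) held 1 PU.1-like match. The PU.1-like motif also matched in a Tlr1 window (1 match) and in the Tlr9 window (2 matches), and neither gene was called lower. A Tlr6 window held 2 interferon-response-like matches, the Tlr9 window 1 AP-1-like match, and the Tlr8 window no match. A match of letters is a description and not evidence of binding.
Tlr2: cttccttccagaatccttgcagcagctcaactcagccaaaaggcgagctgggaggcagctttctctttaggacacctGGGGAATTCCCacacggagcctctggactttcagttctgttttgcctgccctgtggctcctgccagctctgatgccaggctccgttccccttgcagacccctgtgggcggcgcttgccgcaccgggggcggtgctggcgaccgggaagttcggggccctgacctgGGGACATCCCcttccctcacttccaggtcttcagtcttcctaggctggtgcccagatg
Tlr13: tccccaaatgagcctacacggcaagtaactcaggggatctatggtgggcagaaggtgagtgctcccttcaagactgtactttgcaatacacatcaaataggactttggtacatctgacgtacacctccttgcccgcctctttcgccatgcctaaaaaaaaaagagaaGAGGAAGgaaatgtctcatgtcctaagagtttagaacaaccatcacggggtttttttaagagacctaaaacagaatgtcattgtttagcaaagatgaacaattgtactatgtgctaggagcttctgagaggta

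Of the other Toll-like receptors, Tlr3, a sensor of double-stranded RNA, was the 1 of 4 with enough counts to test. The controls held 47 and 126 counts and each LPS library 946, and Tlr3 rose with a log2 fold change of 3.62 ± 0.36 (edgeR adjusted p = 0.0042). Cd180 (RP105), a Toll-like receptor relative without a signalling domain, was the 1 of 3 tested lipid and RP105 receptors that was called. Its control counts were 320 and 497 and its LPS counts 1308 and 1071, a log2 fold change of 1.66 ± 0.21 (edgeR adjusted p = 0.0090). Leaving out LPS replicate 1 ended this edgeR call (1.51, adjusted p = 0.060, range 2.2e-06 to 0.060 over 10 alternatives without a block).

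Proteins that fold, move or process these receptors were called in 3 of 13 tested cases, 1 higher and 2 lower, with a median log2 fold change of -0.16. Slc15a3, a peptide and histidine transporter of endolysosomes, rose by 2.27 ± 0.22 (edgeR adjusted p = 0.0037). Cnpy3, a chaperone needed for several Toll-like receptors to leave the endoplasmic reticulum, went from 294 and 357 counts to 109 in each LPS library and fell by 1.48 on the log2 scale (edgeR adjusted p = 0.014). Pld4, an endolysosomal nuclease that degrades single-stranded nucleic acids, went from 717 and 969 counts to 361 and 323 and fell by 1.2 (edgeR adjusted p = 0.019). Leaving out either LPS library ended both calls, with edgeR adjusted p-values of 0.10 to 0.12 for Cnpy3 (range 0.0005 to 0.12 over 10 alternatives without a block) and 0.13 to 0.16 for Pld4 (0.0017 to 0.16).

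Signalling genes downstream of the receptors were called in 1 direction. Adaptors were higher in 2 of 4 tested cases, Pik3ap1 (BCAP, which links receptors to phosphoinositide kinase) by 2.89 ± 0.25 and Myd88 by 2.73 ± 0.23. Kinases and ligases were higher in 4 of 9, led by the ubiquitin ligase Peli1 (3.56 ± 0.27), the kinase Ikbke (3.30 ± 0.30) and Tab2, which links Traf6 to the kinase Tak1 (1.27 ± 0.21). The edgeR call of Tab2 ended when LPS replicate 1 (1.10, adjusted p = 0.16) or the other LPS library (1.42, 0.067) was left out and with total-count scaling (0.83, 0.067), in a range of adjusted p-values from 0.0011 to 0.16 over the 10 alternatives without a block. Inhibitors were higher in 2 of 4, Tnfaip3 (4.10 ± 0.54, on counts of only 4 and 2 in control), a ubiquitin-editing enzyme, and Irak3 (4.07 ± 0.23), a kinase-like brake on Myd88 signalling. Tnfaip3 reached the minimum only through its LPS counts of 55 and 46. Its log2 fold change was 4.87 without control replicate 1, 3.46 without control replicate 2 and 2.96 in limma-trend. The edgeR adjusted p-values of these 7 genes lay between 0.00068 and 0.023. In all 6 lists together, 11 of 34 tested genes were higher and 2 lower, beside 6.55% and 1.79% of all genes tested. Another 18 were under the minimum, 14 of them with more than 1 accession.

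**Figure D4:**
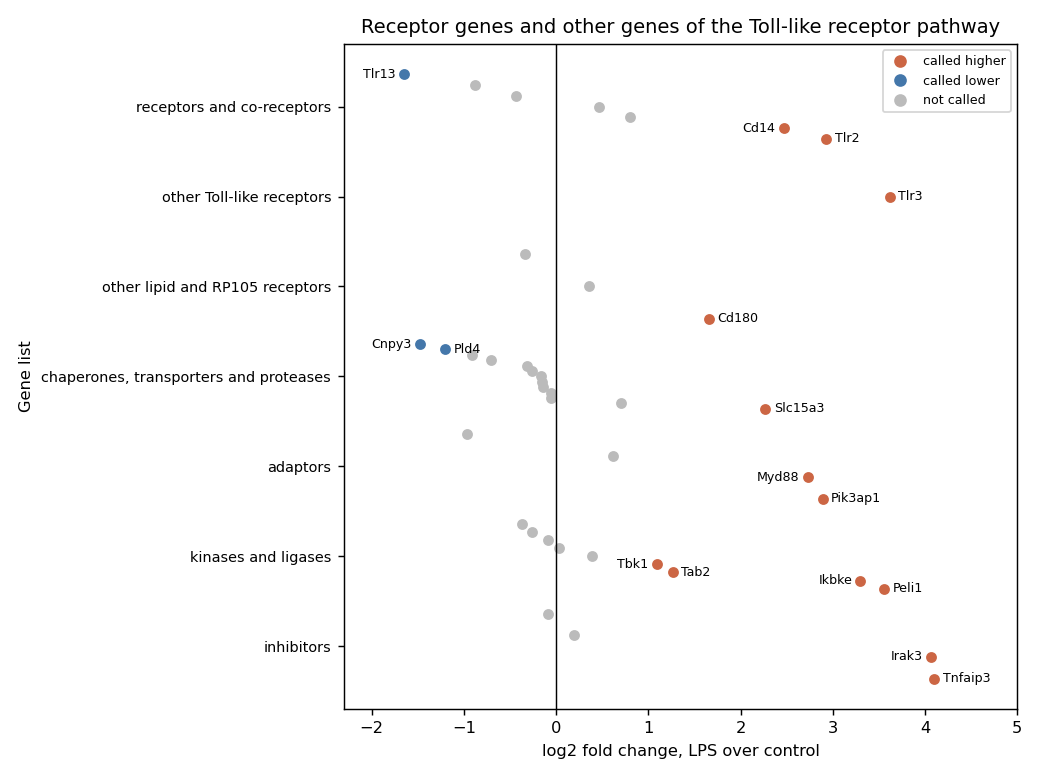
Log2 fold change (LPS over control) of tested genes, by list; orange points were called higher, blue lower and grey not called. Tlr13, Cnpy3 and Pld4 are the genes called lower, and Irak3 and Tnfaip3 lie farthest to the right.

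Genes with the most similar pattern over the 4 libraries were found by Euclidean distance between log2 CPM values centred on each gene's mean. For Cd14 these were Tnfrsf8 (distance 0.11), Olfr56 (0.15) and Gm4759 (0.17). Tnfrsf8 encodes the receptor CD30 and went from 10 and 12 counts to 59 and 77. Olfr56 had only 4 and 4 counts in control and Gm4759 5 and 5. Both reached the minimum for testing only through their LPS counts. For Tlr4 these were Egln3 (0.01), an oxygen-sensing prolyl hydroxylase, Cog6 (0.02), a subunit of a Golgi tethering complex, and Pgm5 (0.04). With 4 libraries and 9548 genes, close matches of this kind are a description only.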

How the data were processed

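RNA sequencing of 4 libraries was analysed from 1 deposited table of whole-number counts per RefSeq accession. Per the labels' protocols, paired-end sequencing followed ribosomal RNA depletion and a strand-keeping library kit. HTSeq 0.6.1, TopHat2 2.0.10, Trimmomatic 0.33, Cufflinks 2.2.1, CASAVA 1.8.2 and the mm10 build appear in the submitters' processing notes. The sources used here do not give their roles, the counting mode, the strand setting or the annotation. The word normalized stands in the table's name, yet column totals differ and every whole number from 0 to 80 occurs in each library, so values were treated as counts; whether the authors rescaled them before deposit was not tested.

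Accessions were matched to symbols with RefSeq (GRCm38.p6, 32483 of 32915) and GENCODE (191), 241 matching neither, and counts were summed per symbol. The most abundant accession, which has no name in the reference, held 20.0% to 24.8% of counts. The 9548 genes whose mean count reached 10 were tested with edgeR 4.0.16 (R 4.3.3), quasi-likelihood, two-sided, TMM scaling, no block, Benjamini-Hochberg adjustment at 0.05. The standard error is the log2 fold change divided by the square root of F. The procedure was checked on simulated data. Replicates were not duplicates: chi-square divided by its degrees of freedom was 34.3 between controls and 25.4 between LPS libraries. Distances used log2(CPM + 0.5), and within-library ratios a prior count of 0.5. Alternatives were DESeq2 1.42.0, total-count scaling, limma-trend (limma 3.58.1) on log2(CPM + 1), other filters, the top accession only, a replicate block and leaving out each library. All 10 receptors were named, and from each pathway list the called genes, at most 3 per direction. The members, lists and rules were chosen with earlier results of these data known.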

Additional observations from a re-analysis of the deposited data

How the results depend on the processing

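Cd14 and Tlr2 were called higher in each of the 11 alternatives. Tlr13 was lower in each of them and lost its call only without an LPS library; its log2 fold change lay between -1.77 and -1.55 with 1 library left out. Tlr4 and Tlr8 were below 0 and Tlr6 above 0 in each alternative. Tlr8 was called lower with total-count scaling (-1.33), limma-trend (-0.87), a minimum mean count of 50 (-0.99) and the replicate block (-0.88). It was not called in the other 7 alternatives. Tlr9 lay between -0.63 and 1.52 with 1 library left out, at -0.23 without control replicate 2 and -0.63 without LPS replicate 1, and its log2 ratio to Tlr4 between -0.06 and 1.79. Tlr9 had no value with a minimum of 50.

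Receptors called lower numbered 2 with total-count scaling, limma-trend and the minimum of 50, 3 with the block, and 0 to 1 with 1 library left out. Pathway genes called lower numbered 5 with total-count scaling, 4 with the minimum of 50, 6 with the block and 0 to 2 with 1 library left out. Over all genes, total-count scaling called 469 higher and 489 lower and moved the median log2 fold change from -0.05 to -0.48, so 49.0% of calls were higher instead of 78.5%. With 1 library left out, 335 to 629 genes were called higher and 33 to 260 lower. An arm left with 1 library is assumed to vary like the other; fewer libraries leave fewer degrees of freedom.

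The replicate numbers share only a number in the labels. Same-numbered libraries deviated together (r = 0.657 across genes, 2 pairs). With the replicate block, edgeR called 1676 genes higher and 1258 lower, and also called Tlr4 (-0.43, adjusted p = 0.0085) and Tlr8 (-0.88) lower and Tlr6 (0.79, adjusted p = 0.0015) higher. The cause of these differences between settings was not tested. Tlr1, Tlr7 and Tlr9 had at most 40 counts in any library, which limits the precision of their values.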
